A study of Mus musculus with 6 samples.

Results

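The cell cycle genes described here are 34 named genes of the G1 to S transition, of DNA replication and of mitosis, taken by symbol from a count table of 22964 genes. All 34 had a row in that table, and 29 of them were among the 15394 genes that passed the filter on low counts. The other 5 (Ccne1, Ccnb2, Cdk1, Aurka and Bub1) had too few reads for the test and are given as values only. The libraries are RNA sequencing of lymphatic endothelial cells, which line lymphatic vessels, from the meninges of wild-type male C57BL/6 mice that had received no treatment. Cells without the leukocyte protein CD45 and with CD31 and podoplanin on their surface were collected by flow cytometry. There were 3 libraries from young mice aged 2 to 3 months and 3 from old mice aged 20 to 24 months. The labels do not say whether a library came from 1 mouse or a pool, so each p reflects the spread between these libraries alone, which may be technical.

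A cell that leaves rest first makes D-type cyclins, which activate Cdk4 and release the E2F transcription factors from the retinoblastoma protein. E2F then raises cyclin E and the replication genes, among them the MCM helicase, which unwinds DNA, and the clamp Pcna. Cyclin A, cyclin B and Cdk1 drive the later steps into mitosis. The mitotic genes are made mostly in dividing cells, under the B-Myb and FoxM1 factors, and are held off in resting cells by the DREAM complex. Endothelium of adult vessels is largely quiescent, so few of its cells are in S phase or mitosis at a given time.

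All 6 libraries carried the transcripts that define the sorted cell, with summed levels of the 8 lymphatic markers from 10412 to 12903 CPM in young and from 16472 to 20217 CPM in old libraries. CPM, the unit of level throughout, is the deposited count scaled to the TMM-adjusted library size. Depth was 14285794 to 21043945 estimated counts per library. Genes of other cells were present too. Fibroblast markers (8 genes) summed to 4137 to 6410 CPM in young and 2101 to 2228 CPM in old libraries, and macrophage and microglia markers (12 genes) to 821 to 4668 and 819 to 2261 CPM. Without Mrc1 and Lyz2, the macrophage and microglia sums were 239 to 4080 CPM in young and 133 to 1498 CPM in old libraries. Blood endothelium markers (6 genes) went the other way, with sums of 347 to 479 CPM in young and 946 to 1192 CPM in old libraries. In bulk RNA, fewer cells of a type and less RNA per cell cannot be told apart.

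The promoters of 26 of the 34 members were listed in RefSeq for GRCm38.p6, in 28 windows that run from 250 bases before to 50 after a start site. Of the 13 windows of mitotic members, 11 held the cell cycle homology region (CHR) element, written as TTTGAA or TTCGAA, through which DREAM binds, and 12 held a CCAAT box. Of the 6 windows of helicase members, 2 held the CHR and 6 a CCAAT box. Over all 32851 windows in that table, 19.2% held such a CHR match and 37.4% a CCAAT match, on either strand. An E2F match, searched as TTTGGCGC, TTTCCCGC or TTTCGCGC on either strand, was in 4 of 6 windows of helicase members against 1.84% of all windows. A match is a description of the letters and no evidence of binding in these cells.
The stretches from 220 bases before to 20 after the RefSeq start are shown for 4 members whose levels lay far apart in these cells, with CHR, CCAAT and E2F matches in capitals. Cdk1 and Ccnb2 were close to 0, and Pcna and Mki67 were well detected. All 4 genes lie on the minus strand, and each sequence reads 5′ to 3′ along the gene.
Cdk1, chr10:69352893-69353132: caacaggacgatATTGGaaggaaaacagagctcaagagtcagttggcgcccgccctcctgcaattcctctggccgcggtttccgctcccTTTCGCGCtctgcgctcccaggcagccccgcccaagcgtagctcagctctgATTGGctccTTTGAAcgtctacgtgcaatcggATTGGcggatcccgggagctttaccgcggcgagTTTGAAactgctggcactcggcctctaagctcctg
Ccnb2, chr9:70421535-70421774: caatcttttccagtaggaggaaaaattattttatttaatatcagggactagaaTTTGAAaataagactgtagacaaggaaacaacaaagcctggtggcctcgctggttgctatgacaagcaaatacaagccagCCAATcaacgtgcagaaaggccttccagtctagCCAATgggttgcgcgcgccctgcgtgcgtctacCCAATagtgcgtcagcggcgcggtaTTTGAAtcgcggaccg
Mki67, chr7:135716360-135716599: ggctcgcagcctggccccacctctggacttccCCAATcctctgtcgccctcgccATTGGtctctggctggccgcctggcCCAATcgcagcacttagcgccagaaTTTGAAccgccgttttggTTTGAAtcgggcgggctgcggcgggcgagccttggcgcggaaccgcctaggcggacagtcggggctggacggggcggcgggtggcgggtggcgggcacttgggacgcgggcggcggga
Pcna, chr2:132253161-132253400: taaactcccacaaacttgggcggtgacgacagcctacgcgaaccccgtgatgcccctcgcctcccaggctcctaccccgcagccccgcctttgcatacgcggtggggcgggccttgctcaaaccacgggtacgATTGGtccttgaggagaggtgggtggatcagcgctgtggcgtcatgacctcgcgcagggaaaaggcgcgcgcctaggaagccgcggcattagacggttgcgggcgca
Cdk1, Ccnb2 and Mki67 each held 2 CHR and 3 CCAAT matches in the 300-base window, whereas Pcna held 1 CCAAT match and no CHR match. Cdk1 also held 1 E2F match, and the other 3 genes shown held 0. The first bases after the RefSeq start were found in an annotated transcript of the gene for Cdk1 and Pcna, but not for Ccnb2 and Mki67. Whether these matches bear on the levels was not tested.

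No cell cycle gene changed with age by the test. Over all 15394 genes, edgeR's quasi-likelihood test with Benjamini-Hochberg adjustment called 0 genes (0%), and the smallest adjusted p among the members was 0.888, for Mki67. At an unadjusted p under 0.05, edgeR counted 1 of the 29 tested members against 856 genes, or 5.56%, of all genes tested. DESeq2 and limma-voom called 0 members after adjustment, and called 294 of 16435 genes (1.79%) and 3 of 15394 genes (0.0195%) overall. Log2 fold changes of the 29 members had their median at 0.23, with 16 above and 13 below 0, and those of all genes tested at 0.02. In 1 of the 29, Mcm2, every old library lay below every young one, and in 0 every old library lay above. Over all genes tested the shares were 6.44% and 5.56%. The standard error (SE) of each log2 fold change was taken as its size divided by the square root of the F statistic of the edgeR test. Its median was 1.15 over the members and 0.96 over all genes, so a 2-fold change of a typical member was not detectable here.

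**Figure D1:**
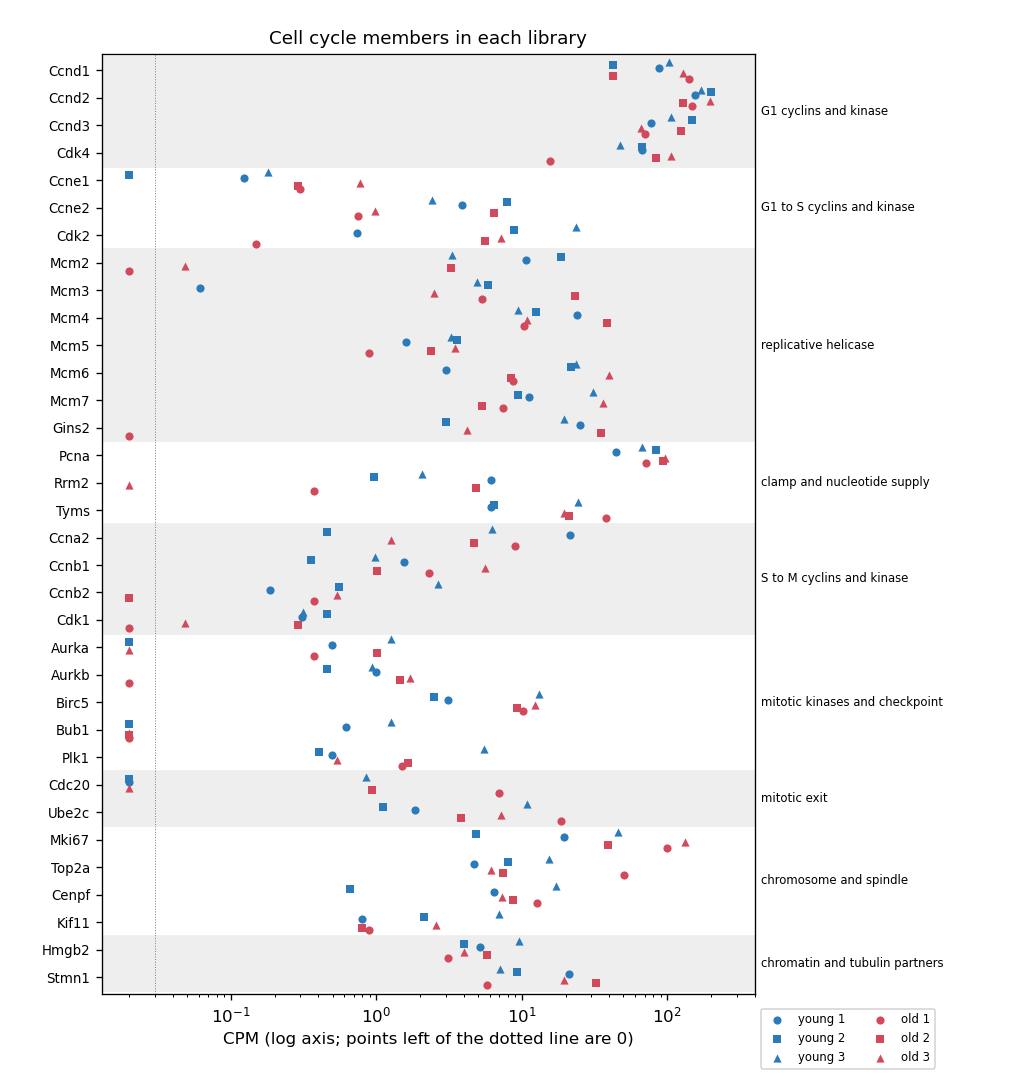
CPM of each of the 34 members (rows, grouped by role) in each of the 6 libraries on a log axis, with young libraries in blue and old in red and the replicate number as the shape. The D cyclins, Cdk4 and Pcna lie mostly near or above 50 CPM, whereas most mitotic genes scatter below 10 CPM and several libraries have 0.

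The D cyclins were among the members with the highest levels in both ages, and Ccnd2 was the most even member, its highest library at 1.56 times its lowest. Ccnd2 (chromosome 6, 127125162 to 127152193, minus strand, GRCm38), a D-type cyclin, had 155, 201 and 172 CPM in young libraries 1, 2 and 3 and 148, 129 and 197 CPM in old libraries 1, 2 and 3. The ages overlapped, with a log2 fold change of −0.16 (SE 0.29). Ccnd1, the D cyclin that growth factors induce in many cell types, had 88.3, 42.5 and 102 CPM in young and 141, 42.4 and 127 CPM in old libraries. Library 2 of each age was the low one, and the log2 fold change was 0.42 (SE 0.53). The labels give no pairing between young and old libraries of equal number, here or for the genes below. Ccnd3, the third D cyclin, had 76.8, 149 and 106 CPM in young and 69.8, 125 and 66.2 CPM in old libraries. Here library 2 was the highest of each age, opposite to Ccnd1, and the log2 fold change was −0.34 (SE 0.41). The 3 D cyclins together summed to 364 ± 38.8 CPM (SD, n = 3) in young and 349 ± 47.6 CPM (SD, n = 3) in old libraries.

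Cdk4, the kinase that D cyclins activate, had 67.1, 67.5 and 47.3 CPM in young and 15.6, 83.3 and 105 CPM in old libraries. Old library 1 lay far below the other 5, and the sign of the Cdk4 difference turned without old library 3, from a log2 fold change of 0.17 (SE 0.64) to −0.29. All 4 of these genes have exons that overlap a gene on the opposite strand. Whether the counting used strand is not given in the sources used, so reads of the partners could be mixed in.

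The next step, from G1 to S, was represented at far lower levels. Ccne1, a cyclin E that activates Cdk2, had 2, 0 and 4 counts in young and 4, 4 and 16 counts in old libraries. Every old library was above every young one in CPM, at 0.101 ± 0.0917 CPM in young and 0.455 ± 0.279 CPM in old (SD, n = 3), but the gene failed the filter and was not tested. Ccne2, the other cyclin E, had 3.89, 7.94 and 2.42 CPM in young and 0.745, 6.44 and 0.972 CPM in old libraries, which overlapped. Cdk2 had 0.741, 8.85 and 23.5 CPM in young and 0.149, 5.57 and 7.24 CPM in old libraries. Library 1 was the lowest of each age for Cdk2, and its log2 fold change was −1.35 (SE 1.54).

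The MCM helicase subunits, which form a ring of 6 different proteins in equal amounts, did not move together between libraries. Mcm2 (chromosome 6, 88883474 to 88898780, minus strand) was the member with the lowest log2 fold change. It had 10.6, 18.6 and 3.32 CPM in young and 0, 3.25 and 0.0486 CPM in old libraries, which are 172, 368 and 74 counts against 0, 45 and 1. The highest old library thus lay just below the lowest young one. The log2 fold change of −3.30 (SE 1.89) had an adjusted p = 0.891 in edgeR. Without old library 2 it was −8.32, at an adjusted p = 0.601, and without young library 2 it was −2.68. The 3 counts that a count of 0 allows in old library 1 correspond to 0.223 CPM.

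Other subunits showed different libraries on top. Mcm4 was highest in old library 2, with 24.0, 12.4 and 9.36 CPM in young and 10.4, 38.5 and 10.9 CPM in old libraries. Mcm6 was highest in old library 3, with 3.03, 21.9 and 23.7 CPM in young and 8.64, 8.39 and 39.9 CPM in old libraries. Mcm7, which hosts the microRNA genes Mir25 and Mir93 and overlaps 2 genes on the other strand, had 11.2, 9.35 and 31.1 CPM in young and 7.45, 5.35 and 36.1 CPM in old libraries. For Mcm7, library 3 was the highest of each age.

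Mcm3 and Mcm5 were lower still. Mcm3 had 0.0618 CPM, a single count, in young library 1 and 23.2 CPM in old library 2, with 2.48 to 5.81 CPM in the other 4 libraries. Mcm5 stayed between 0.894 and 3.59 CPM in all 6. Summed over the 6 subunits, the level was 66.0 ± 13.5 CPM in young and 68.9 ± 31.9 CPM in old libraries (SD, n = 3), so the sums differed by less than their spread. Gins2, a part of the GINS complex that works with MCM at the fork, had 25.2, 3.03 and 19.5 CPM in young and 0, 35.3 and 4.23 CPM in old libraries. Its range within each age was wider than the gap between the ages.

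Pcna (chromosome 2, 132249162 to 132253314, minus strand), the sliding clamp of DNA polymerases, which also serves in DNA repair, was the steadiest replication gene. It had 44.8, 84.1 and 67.0 CPM in young and 71.4, 93.9 and 95.9 CPM in old libraries. The ages overlapped through young library 2, and the log2 fold change was 0.42 (SE 0.39). Tyms, which makes thymidylate, had 6.12, 6.47 and 24.2 CPM in young and 38.1, 21.0 and 19.5 CPM in old libraries. Young library 3 lay among the old ones, with a log2 fold change of 1.09 (SE 0.83). Rrm2, the subunit of ribonucleotide reductase that rises in S phase, was low, with 6.12, 0.960 and 2.06 CPM in young and 0.372, 4.85 and 0 CPM in old libraries. Pcna has a near-identical match in the pseudogene Pcna-ps2, and Rrm2 has one in Gm48455. Tyms shares near-identical stretches with 10 other genes, among them Map3k2 and Reep3. The split of reads of Pcna, Rrm2 and Tyms is therefore uncertain. Summed over Pcna, Tyms and Rrm2, the level was 57.0, 91.5 and 93.3 CPM in young and 110, 120 and 115 CPM in old libraries. It was the 1 role group in which the summed level of every old library lay above that of every young one, at 1.43-fold, and the sum has no test here. Over all genes tested, 5.56% had every old library above every young one. Pcna, Tyms and Rrm2 each overlapped between ages.

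The mitotic cyclins varied widely between libraries, and Cdk1 was near the limit of detection in all 6. Cdk1 (chromosome 10, 69335146 to 69352938, minus strand), the kinase that triggers mitosis, had 5, 9 and 7 counts in young and 0, 4 and 1 counts in old libraries, which is at most 0.455 CPM. The young libraries all lay above the old ones, but with 26 counts in all the gene was not tested. Ccnb2, a cyclin B, had 3, 11 and 59 counts in young and 5, 0 and 11 in old libraries. Ccnb1, the main partner of Cdk1, had 1.54, 0.354 and 0.986 CPM in young and 2.31, 1.01 and 5.59 CPM in old libraries, with a log2 fold change of 1.62 (SE 1.26). Ccnb1 has near-identical matches in 4 other genes, among them Ccnb1-ps, so the split of its reads is uncertain. Ccna2, the cyclin of S and G2 phase, had 21.3, 0.455 and 6.27 CPM in young and 9.01, 4.70 and 1.26 CPM in old libraries. Of its level summed over the 6 libraries, 49.5% was in young library 1.

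Among the mitotic kinases and checkpoint genes, Bub1, Aurka and Aurkb had at most 35 counts in any library. Bub1 (chromosome 2, 127801122 to 127831865, minus strand), a spindle checkpoint kinase, had 10, 0 and 28 counts in young libraries and 0 in each old library. Against the 3 counts that 0 allows over the old group, the pooled young level was at least 10.4-fold higher, a bound on counting error only that rests on 2 young libraries. The gene failed the filter over all 6 libraries. It passed without young library 2, the young library at 0, through the young group alone. There its unadjusted p was under 0.05 in edgeR, which that choice of libraries favours and which is no support for a difference. It was not called after adjustment. Aurka, which acts at centrosomes, had 8, 0 and 28 counts in young and 5, 14 and 0 in old libraries. Aurkb, the kinase of the chromosomal passenger complex, had 16, 9 and 21 counts in young and 0, 20 and 35 in old libraries.

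Plk1, a kinase of spindle assembly, stood out in young library 3 with 5.51 CPM against 0.404 to 1.66 CPM in the other 5. Birc5, which encodes the passenger protein survivin, was the best detected of these genes. It had 3.09, 2.48 and 13.2 CPM in young and 10.1, 9.26 and 12.3 CPM in old libraries. Young library 3 again lay with the old ones, and the log2 fold change was 0.76 (SE 1.04).

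Cdc20 and Ube2c serve the anaphase-promoting complex, which ends mitosis by marking cyclin B for breakdown. Cdc20 had 19 counts in young library 3 and 0 in the other young libraries, and 94, 13 and 0 counts in the old libraries. Old library 1 held 79.6% of its summed level, the highest share of any member. Ube2c, the ubiquitin-conjugating enzyme of that complex, had 1.85, 1.11 and 10.8 CPM in young and 18.7, 3.83 and 7.14 CPM in old libraries, with a log2 fold change of 1.10 (SE 1.25). For both genes the highest old library was library 1 and the highest young library was library 3.

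Mki67 (chromosome 7, 135689784 to 135716361, minus strand), which encodes the Ki-67 protein that coats mitotic chromosomes and is the usual marker of cycling cells, was the exception among the mitotic genes. It had 19.5, 4.85 and 45.7 CPM in young and 99.4, 39.2 and 133 CPM in old libraries, from 96 to 2736 counts. Young library 3 lay above old library 2, so the ages overlapped. The log2 fold change of 1.95 (SE 0.81), or 3.87-fold, had an adjusted p = 0.888 in edgeR. It was the 1 tested member under 0.05 before adjustment, at 0.0391. The adjusted p ran from 0.292 to 1.000 over the alternatives. In edgeR fits without single libraries, the unadjusted p was 0.0991 without young library 1, 0.0718 without young library 2, 0.0759 without old library 1 and 0.129 without old library 3. It was 0.0118 without young library 3 and 0.0273 without old library 2. It was 0.0524 when libraries were scaled by their size alone, 0.0228 by DESeq2 and 0.020 by limma-voom. The log2 fold change was positive in each of the 13 alternatives, from 1.47 to 2.89.

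Other genes of mitotic chromosomes and the spindle had other libraries on top. Top2a, the topoisomerase that untangles sister chromosomes, had 4.69, 8.09 and 15.5 CPM in young and 50.1, 7.45 and 6.17 CPM in old libraries. Its log2 fold change of 1.17 (SE 1.04) came from old library 1, and without that library it was −0.47. Cenpf, a kinetochore protein with a transcript of similar length to that of Mki67, had 6.49, 0.657 and 17.2 CPM in young and 12.8, 8.75 and 7.29 CPM in old libraries, a log2 fold change of 0.24 (SE 1.18). Kif11, a spindle motor, had 0.803, 2.12 and 6.99 CPM in young and 0.894, 0.795 and 2.58 CPM in old libraries. Old library 3, where Mki67 was highest, was also the highest for Ccnb1, with 115 counts, and Aurkb, with 35, whereas Cdc20, Aurka and Bub1 had 0 counts there and Cdk1 had 1.

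**Figure D2:**
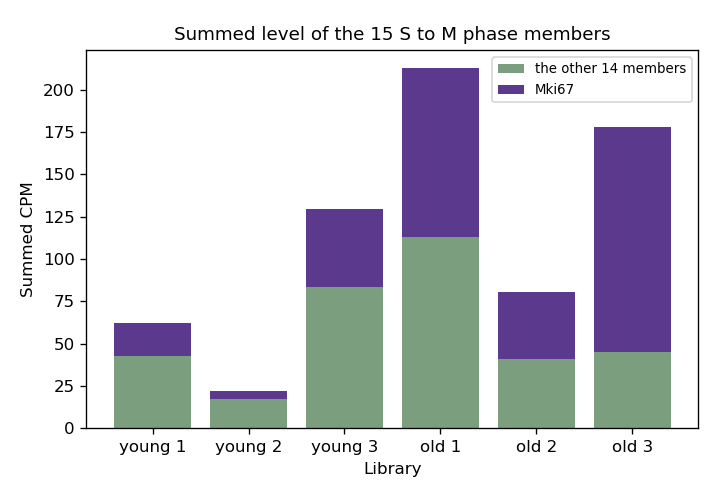
Summed CPM of the 15 members that act from S phase to mitosis in each library, with Mki67 in purple and the other 14 in green. Mki67 makes up 74.6% of the sum in old library 3 and 22.1% in young library 2, and the green parts of young and old libraries overlap. CPM is not scaled for transcript length here.

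Summed over the 15 members that act from S phase to mitosis, the level was 62.4, 22.0 and 129 CPM in young and 212, 80.3 and 178 CPM in old libraries. Mki67 gave 31.3%, 22.1% and 35.3% of that sum in the young and 46.8%, 48.8% and 74.6% in the old libraries. Without Mki67, a choice made after its values were seen, the sums were 42.9, 17.1 and 83.7 CPM in young and 113, 41.1 and 45.2 CPM in old libraries. The log2 ratio of the group means went from 1.14 with Mki67 to 0.47 without it. A score over these genes has no test of its own here, since the genes were chosen with results known.

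Markers of blood and immune cells that may divide varied across the same libraries. Erythroid and platelet markers (8 genes) summed to 154, 102 and 430 CPM in young and 3.72, 318 and 823 CPM in old libraries. Hba-a1, Hba-a2, Hbb-bt and Pf4 were at 0 in old library 1, where Mki67 had 99.4 CPM and Top2a and Cdc20 were highest. The erythroid and platelet sum was highest in old library 3, where Mki67 was also highest, at 133 CPM. Granulocyte markers (8 of 9 listed genes measured) ranged from 1.98 to 59.2 CPM in young and from 2.23 to 207 CPM in old libraries. Their sum was 2.23 CPM in old library 1 and highest, at 207 CPM, in old library 3. Lymphocyte and plasma cell markers (9 of 10 measured) summed to 18.0, 81.6 and 21.8 CPM in young and 63.2, 57.9 and 35.7 CPM in old libraries, where old library 1 was the highest. The B cell gene Cd79b had 370 counts in old library 1, or 99.2% of its summed level, and at most 2 in any other, and Ms4a1 had 53 there against at most 13. The macrophage sum was 821 CPM in young library 1 and 819 CPM in old library 1, the lowest of each age. Mrc1 alone had 399 and 676 CPM in these 2 libraries. Without Mrc1 and Lyz2, the sums were 239, 2497 and 4080 CPM in young and 133, 1498 and 383 CPM in old libraries. Pericyte and smooth muscle markers (7 genes) were 501 to 680 CPM in young and 751 to 1822 CPM in old libraries, highest in old library 1. Of these, Acta2, Myh11 and Tagln were highest in old library 1, and Rgs5, Abcc9 and Kcnj8 in old library 3. Kcnj8 had its lowest level, 56.5 CPM, in old library 1. Cspg4 was at 0 there and highest in young library 1. The part of any of the cell types above, or of fibroblasts and blood endothelium, in the Mki67, Top2a and Cdc20 values was not tested.

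Hmgb2 and Stmn1 are often grouped with proliferation genes, although many resting cells express them. Hmgb2, a chromatin protein, had 5.13, 3.99 and 9.50 CPM in young and 3.13, 5.79 and 3.98 CPM in old libraries. Stmn1, which destabilises microtubules, had 21.1, 9.30 and 7.03 CPM in young and 5.81, 32.4 and 19.5 CPM in old libraries. Both overlapped between ages, with log2 fold changes of −0.53 (SE 1.05) and 0.62 (SE 0.90), and both have near-identical copies at other loci.

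**Figure D3:**
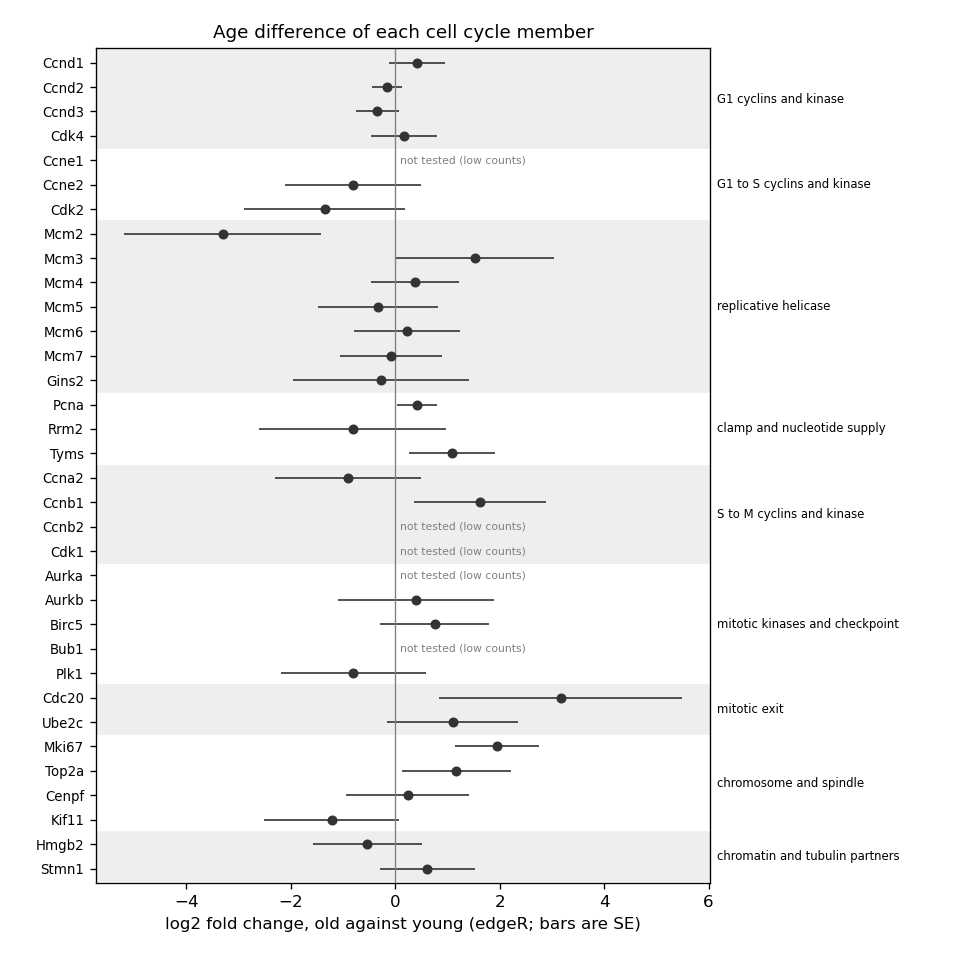
Log2 fold change of old against young for the 29 tested members, with bars of 1 standard error, grouped by role. Mki67 at 1.95 has a far shorter bar than Cdc20 at 3.17 and Mcm2 at −3.30, and the D cyclins, Cdk4 and Pcna lie within 0.42 of 0.

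Levels can be compared between genes only per transcript length, here as CPM per kb of the longest coding transcript in GENCODE M21. On that scale Pcna led with a mean of 50.2 over the 6 libraries, followed by Ccnd3 at 46.8, Cdk4 at 31.4, Ccnd2 at 26.4 and Ccnd1 at 24.3. The ranges of these 5 genes over libraries overlapped, so their order is not settled. Mki67, with the 10061-base transcript, fell to 5.66 CPM per kb, beside 5.66 for Mcm7 and 6.09 for Tyms. At the bottom were Ccne1 at 0.139, Bub1 at 0.0912 and Cdk1 at 0.0539 CPM per kb. The scale assumes reads spread along the whole transcript, which the amplification step may not give.

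**Figure D4:**
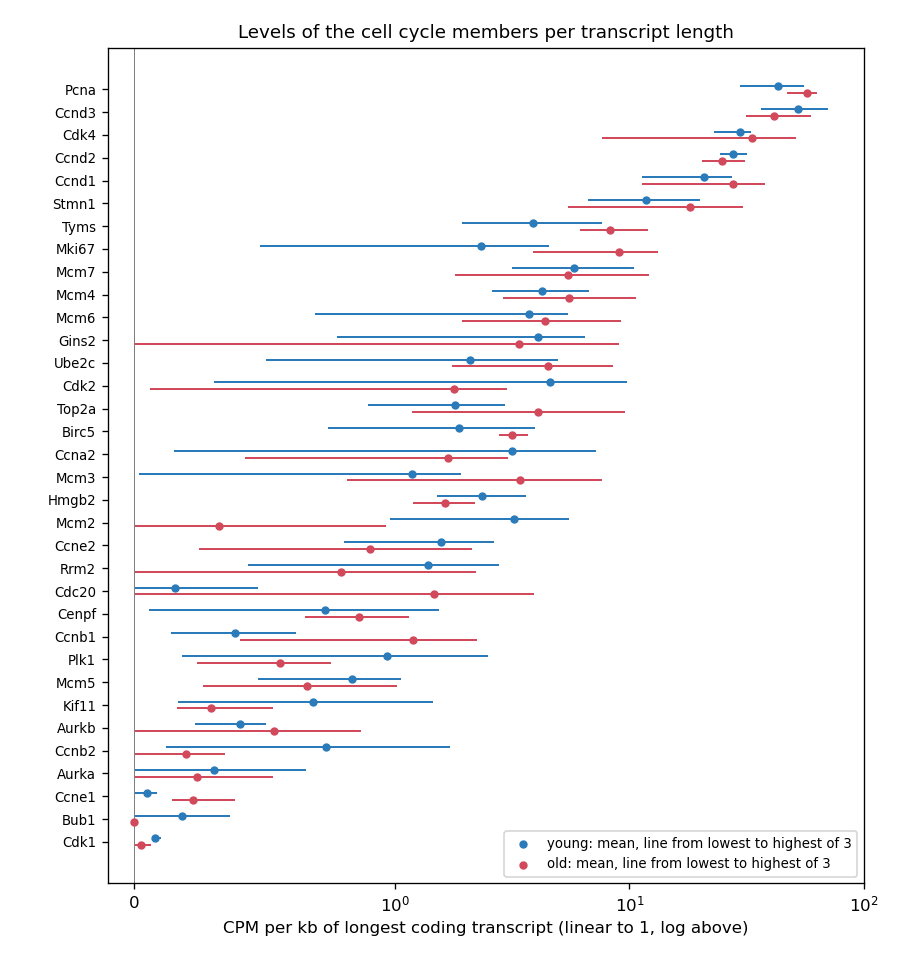
Mean CPM per kb of each member in young (blue) and old (red) libraries, ordered by the mean over all 6, with lines from the lowest to the highest of 3 libraries. Pcna, the D cyclins and Cdk4 stand at the top, Cdk1 and Bub1 at the bottom, and the lines of most genes in between span over a large part of the axis.

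Many members were found in some libraries and missing in others. Of the 34, 10 had a count of 0 in at least 1 library. Between 29 (old library 1) and 34 (young library 3) members had at least 1 count in a library. At least 10 counts were reached by 27, 25 and 32 members in young libraries 1, 2 and 3 and by 24, 30 and 28 in old libraries 1, 2 and 3. Among the 29 tested members, 17.2% had a library at 0, beside 15.1% of all genes tested, although the members had a median of 8.41 CPM and all genes one of 16.8 CPM. For 8 of the 34, more than 50% of the summed level came from a single library. Young library 3 had the highest value for 9 members and young library 1 for 2.

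Other cell cycle genes, from lists of 135 further genes written for this account, likewise gave no call. Of the 112 that passed the filter, 49 had a positive and 63 a negative log2 fold change, with a median of −0.24, and edgeR called 0 after adjustment. At an unadjusted p under 0.05, edgeR counted 5, 2 higher and 3 lower in old cells, beside 2.86% and 2.70% of all genes tested in those directions. Foxm1, the transcription factor of mitotic genes, had 2.10, 9.91 and 10.6 CPM in young and 0.596, 0 and 0.146 CPM in old libraries. All young libraries lay above the old ones, with a log2 fold change of −4.90 (SE 1.70) and an adjusted p = 0.858 in edgeR. Cdc7, the kinase that fires replication origins, had 4.32, 0.910 and 9.27 CPM in young and 0.223, 0.145 and 0.194 CPM in old libraries, at an adjusted p = 0.797 in edgeR.

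Among the inhibitors of cyclin-dependent kinases, 1 of the 5 tested was higher and 4 were lower by sign, and edgeR called 0. Cdkn2d, which encodes the Cdk4 inhibitor p19, had 2.16, 2.02 and 0.627 CPM in young and 0.0745, 0 and 0.0486 CPM in old libraries, at an adjusted p = 0.754 in edgeR. Cdkn1a, which encodes the p53 target p21, had 35.4, 111 and 90.6 CPM in young and 13.8, 70.3 and 30.6 CPM in old libraries. Cdkn2b was at 0 in 4 libraries. Cdkn1a and Cdkn2b were named after their values were seen.

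Pold1, the catalytic subunit of DNA polymerase delta, was the DNA synthesis gene with the smallest p. It had 5.87, 1.42 and 0.986 CPM in young and 21.4, 14.5 and 31.2 CPM in old libraries, all old ones being higher, at an adjusted p = 0.855 in edgeR. Ccnt1, a cyclin of transcription elongation and not of the cell cycle proper, had 145, 145 and 152 CPM in young and 239, 212 and 245 CPM in old libraries, at an adjusted p = 0.888 in edgeR. Of the 25 mitosis genes tested, 16 were positive and 9 negative, with a median of 0.21. Of the 16 subunits and partners of the anaphase-promoting complex, 5 were positive and 11 negative, with a median of −0.41. None of either list reached an unadjusted p under 0.05 in edgeR, and none was called by edgeR after adjustment.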

How the data were processed

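The table deposited by the authors holds estimated counts per Ensembl gene for 6 libraries, already as whole numbers, so rounding changed nothing. FastQC, Salmon and the build mm10 are named in the submitters' processing notes. Their versions, the annotation and the strandedness are not given in the sources used. Per the labels' protocols, RNA came from a small-sample kit and was amplified linearly. Symbols, positions and lengths came from GENCODE M21 on GRCm38 (the assembly of mm10), where 22738 of 22964 identifiers matched. Near-identical copies were searched with BLAST 2.17.0 (at least 95% identity over 300 bases). Matches at another locus were found for 8 members: Ccnd3, Mcm7, Pcna, Rrm2, Tyms, Ccnb1, Hmgb2 and Stmn1. Exons of 12 members overlap those of an opposite-strand gene.

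The main test was edgeR 4.0.16 (R 4.3.3) on all genes: filterByExpr (minimum count 10, minimum total 15), TMM, a robust quasi-likelihood fit on age alone, a two-sided test and Benjamini-Hochberg adjustment at 0.05. The filter removed 7570 genes. The common biological coefficient of variation was 90.1%. Alternatives used DESeq2 1.42.0 and limma 3.58.1. The fits were run on simulated data with known changes, where edgeR and limma-voom missed most changed genes and most of DESeq2's calls were false. The simulated counts were a single draw from edgeR's own dispersions, so they cannot show which calls in the real data are false. The members and lists were chosen with earlier results of these data known. Values per library are given for members with a mean of at least 10 CPM, at unadjusted p under 0.05 or leading their role group, and for most others. From each other list, up to 4 genes at unadjusted p under 0.05 are named. One gene of the erythroid and platelet markers is not reported here and is left out of their sum.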

Additional observations from a re-analysis of the deposited data

How the results depend on the processing

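No member was called under any of the 13 alternatives, and 17 of the 29 tested members kept their sign in all of them. The other 12 turned in at least 1. By limma-voom the log2 fold changes of Cdk4 and Aurkb were −0.07 and −0.63. With the replicate number as a block those of Cdk4, Aurkb and Plk1 were −0.16, −0.19 and 0.40. Libraries share only a number: deviations of equal numbers correlated at 0.0792, 0.0533 and −0.0119 over genes. Members at unadjusted p under 0.05 numbered 0 with library size only, 2 by limma-voom and 2 with the replicate block (Mcm2 and Mki67), and the block changed no call. Genes called were 294 by DESeq2 and 3 by limma-voom, and genes at unadjusted p under 0.05 were 1543 without a filter and 2006 by DESeq2.

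Leaving out 1 library at a time, genes called ran from 0 to 1 (1 without old library 1), members at unadjusted p under 0.05 from 0 to 2, and genes at that p from 696 to 1396. The members' median ran from −0.13 (without old library 3) to 0.42. For the members that turned, log2 fold changes ran from −0.29 to 0.64 for Cdk4, −0.52 to 0.86 for Mcm4, −0.78 to 0.05 for Mcm5, −0.93 to 0.61 for Mcm6, −1.43 to 0.66 for Mcm7, −2.90 to 0.31 for Gins2 and −4.02 to 0.19 for Rrm2. They ran from −1.65 to 0.57 for Ccna2, −0.13 to 0.98 for Aurkb, −1.30 to 1.42 for Plk1, −0.47 to 1.71 for Top2a and −0.31 to 1.41 for Cenpf. The log2 ratio of the summed CPM of the members from S to M phase, old over young, ran from 0.70 (without young library 2) to 1.89 (without young library 3). The cause was not tested. For a member at 0 counts in a library, a level below that of 3 counts is not detectable there.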

Other observations

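A few other cell cycle genes, named after their values were seen, were present in a single library at a level that the other 5 did not approach. Ttk, a spindle checkpoint kinase, had 57.9 CPM in old library 1 and 0 in the other 5 libraries. E2f2, an activating E2F factor, had 58.8 CPM in old library 3, 3.69 CPM in old library 2 and at most 0.101 CPM in the others. Lin9, a subunit of the MuvB core, had 10.9 CPM in young library 3 and 0 in the other 5. All 3 failed the filter on low counts and were not tested.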
